A study of Mus musculus with 2 samples.

Results

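Among the GR-1+ cells collected from 4T1 mammary tumors, a small number carried the transcripts of B or T lymphocytes in place of those of myeloid cells. A cell barcode was taken as B when UMIs (unique molecular identifiers, 1 per captured RNA molecule) of at least 2 of Cd79a, Cd79b and Ms4a1 were counted in it, and as T when UMIs of at least 2 of Cd3g, Cd3e, Ms4a4b and Trbc2 were counted. Barcodes entered when they had 250 to 5000 detected genes, no more than 27000 UMIs, and a mitochondrial share of UMIs no higher than 12.5%. Of 3220 such barcodes 63 were lymphocytes by this rule, 37 of them B and 26 T, and 0 passed both rules. The other 3157 barcodes serve as the background of the same libraries.

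B lymphocytes recognise antigen with a membrane immunoglobulin that signals through the CD79A and CD79B chains, and they present peptides of the antigen on MHC class II. T lymphocytes carry a receptor of alpha and beta, or gamma and delta, chains that signals through the CD3 complex, and they divide into CD8 cells, CD4 helper cells and FOXP3+ regulatory cells. GR-1 is the epitope of an antibody against LY6G that also binds LY6C, which neutrophils and monocytes carry, but LY6C is also found on some CD8 T cells and on plasma cells.

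The cells came from 2 kinds of tumor grown in the mammary fat pad of female BALB/c mice of 8 to 10 weeks and treated with an anti-PD1 antibody for 2 weeks. 4T1p is the parental 4T1 line, a murine triple-negative breast carcinoma that resists this therapy, and 4T1m is a polyclonal population derived from it with the mutagen MNNG, whose tumors respond. GR-1+ cells were taken by magnetic positive selection and made into 1 library per kind of tumor with the 10x Genomics 3′ v3 chemistry, and the number of animals behind a library is not given in the sources used here. With 1 library per condition no difference between the tumors was tested. All intervals are 95% intervals, exact Poisson for summed UMIs and exact binomial for shares, and they cover counting error only.

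The library labelled 4T1p held 9021132 UMIs in 1641 barcodes, of which 1128 passed the limits. The library labelled 4T1m held 14840190 UMIs in 2749 barcodes, of which 2092 passed. No barcode sequence was shared between them. The median UMIs per barcode of the 2 files are exchanged relative to those stated for the tumors in the study, so every direction between the tumors rests on the labels of the deposited files, and the libraries are named by these labels throughout.

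The places of the 7 genes of the rule are given in GRCm38, from GENCODE vM21. Cd79a (ENSMUSG00000003379) lies on chromosome 7 from 24897381 to 24902197, Cd79b (ENSMUSG00000040592) on chromosome 11 from 106311341 to 106314762, and Ms4a1 (ENSMUSG00000024673), which encodes CD20, on chromosome 19 from 11249675 to 11266241. Cd3g (ENSMUSG00000002033) and Cd3e (ENSMUSG00000032093) lie close to each other on chromosome 9, from 44969572 to 44980431 and from 44998740 to 45009627. Trbc2 (ENSMUSG00000076498), a constant region of the receptor beta chain, is on chromosome 6 from 41546730 to 41548352, and Ms4a4b (ENSMUSG00000056290), a CD20-related membrane protein of T cells, is on chromosome 19 from 11443553 to 11467055. These genes chose the barcodes, so their values are a description only. In the B barcodes Cd79a had 290 UMIs in 36 of 37 barcodes, Cd79b 92 UMIs in 25 and Ms4a1 155 UMIs in 33. In the T barcodes Trbc2 had 155 UMIs in all 26, Ms4a4b 112 UMIs in 21, Cd3g 84 UMIs in 21 and Cd3e 65 UMIs in 22.

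The 2 groups were separated without overlap by the genes of the rule. No UMI of Cd79a, Cd79b or Ms4a1 was found in a T barcode, and of the T genes only 1 UMI of Ms4a4b was found in a B barcode. Just inside the threshold, 17 barcodes had exactly 2 of the 3 B genes and 20 had all 3. Just outside, 34 barcodes had 1 B gene, 24 of them only Cd79b, 10 only Cd79a and 0 only Ms4a1, and their median of 12283 UMIs was above the 3660 of the barcodes with 2 B genes. For T, 4 barcodes had 2 genes, 6 had 3 and 16 had all 4, while 42 had 1 gene, which was Ms4a4b in 35 of them.

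**Figure D1:**
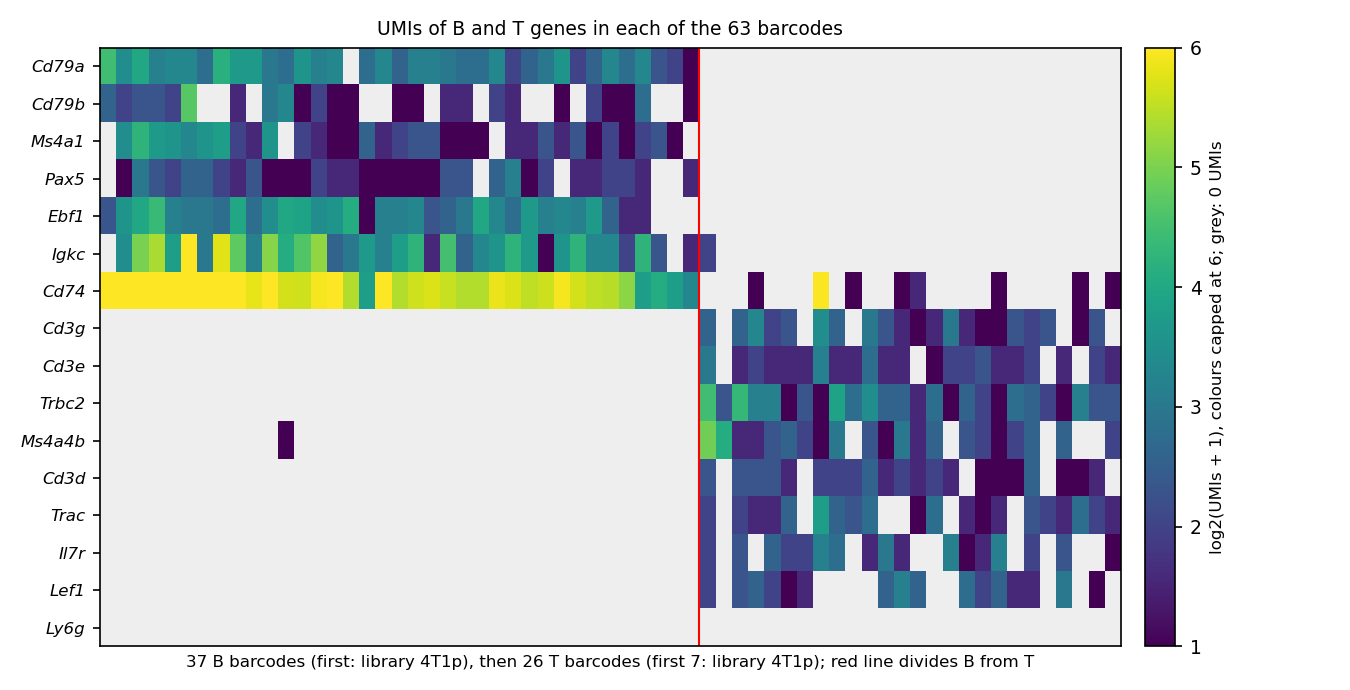
UMIs of B and T genes (vertical) in each of the 63 barcodes (horizontal), coloured by log2(UMIs + 1), with 0 UMIs in grey and the colours capped at 6. Most of the 37 B barcodes carry Ebf1, Igkc and Cd74 beside the 3 genes of the rule, most of the 26 T barcodes carry Cd3d, Trac, Il7r and Lef1, and Ly6g is at 0 in all 63.

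The lymphocyte barcodes were deeper at the median than the rest of the libraries. The median was 3772 UMIs in B barcodes (565 to 15784) and 5254.5 in T barcodes (3081 to 22681), against 2452 in the other barcodes. A UMI of Ptprc, which encodes the leukocyte antigen CD45, was present in 33 of 37 B and 26 of 26 T barcodes, against 2034 of 3157 others. Ribosomal protein genes gave 20.8% of the UMIs in B and 26.2% in T barcodes, against 11.0% in the others, and the median mitochondrial share was 7.42% in B and 6.19% in T, against 3.78%. Scrublet, a doublet caller, marked 13 barcodes of the library labelled 4T1p and 44 of the library labelled 4T1m by score, and 0 lymphocyte barcodes were among them. Doublets were not removed.

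The libraries are labelled as myeloid cells, and transcripts of myeloid cells were nearly absent from the lymphocyte barcodes. Csf3r, Cxcr2 and Mmp9, of the granulocytic list, and Ly6g were at 0 in all 63. Ly6g had a UMI in only 5.38% of the other barcodes, so its 0 says little. S100a8, an alarmin gene that is among the most abundant transcripts of neutrophils, had 16 UMIs in 10 B barcodes and 4 UMIs in 4 T barcodes, against 278014 UMIs in 1919 of the 3157 others. The 8 granulocytic genes together gave 0.0341% of the UMIs in B barcodes (0.0261 to 0.0437), with S100a9 the most abundant at 31 of 62 UMIs, against 4.65% in the others. The 10 monocytic genes gave 0.0682% in B barcodes (0.0567 to 0.0813), most of them from Apoe, against 2.30%. In T barcodes the granulocytic and monocytic genes together gave 0.163% of the UMIs (0.144 to 0.184), and 212 of the 262 UMIs came from 1 barcode of the library labelled 4T1m, the deepest T barcode, which is described below. UMIs of at least 4 of 10 myeloid genes were found in 5 B and 2 T barcodes, against 2785 of the 3157 others.

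Genes of other cell types that such a selection could hold were read as well. The erythroid genes had 3 UMIs in B and 2 in T barcodes, and the conventional dendritic genes 4 and 2. Of the plasmacytoid dendritic genes, Siglech, Klk1 and Cox6a2 had none, and Ccr9, Bst2, Runx2 and Irf7 are not reported here. Tcf4, a transcription factor of plasmacytoid dendritic cells that B cells also use, had 55 UMIs in 28 B barcodes. The 10 genes of tumor epithelium and stroma had 23 UMIs in B and 22 in T barcodes, of which 15 and 14 were from Pecam1. Among genes of natural killer and innate lymphoid cells, Id2 had 20 UMIs in 6 B and 105 UMIs in 15 T barcodes. It was also counted in 1583 of the 3157 others. In T barcodes Il1rl1 had 10 UMIs in 2, Klrb1c 5 in 1, Klre1 4 in 2, Ncr1 3 in 1 and Zbtb16 1 in 1. Each of these had 0 in B, and Klra4, Klra8 and Klri2 had 0 in both groups.

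B barcodes were present almost only in the library labelled 4T1m. They made up 36 of 2092 barcodes there, or 1.72% (1.21 to 2.37), and 1 of 1128 in the library labelled 4T1p, or 0.0887% (0.00224 to 0.493). T barcodes made up 19 of 2092, or 0.908% (0.548 to 1.41), and 7 of 1128, or 0.621% (0.250 to 1.27). The intervals of the T shares overlap and those of the B shares do not. Among lymphocytes, B barcodes were 36 of 55 in the library labelled 4T1m and 1 of 8 in the library labelled 4T1p, that is 65.5% (51.4 to 77.8) and 12.5% (0.316 to 52.7). All these shares are of cells recovered by the selection, so a change in lymphocytes and a change in the myeloid cells that make up the rest cannot be told apart. The order of the T shares turned at a limit of 5% mitochondrial UMIs, to 0.160% (4T1m) and 0.253% (4T1p). It also turned with only barcodes that had a Ptprc UMI, to 1.21% (4T1m) and 1.35% (4T1p). The intervals of the B shares overlap at the limit of 5% mitochondrial UMIs. At that limit B barcodes were 4 of 1253 in the library labelled 4T1m, or 0.319% (0.0870 to 0.815), and 0 of 792 in the library labelled 4T1p, with an upper bound of 0.465%.

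**Figure D2:**
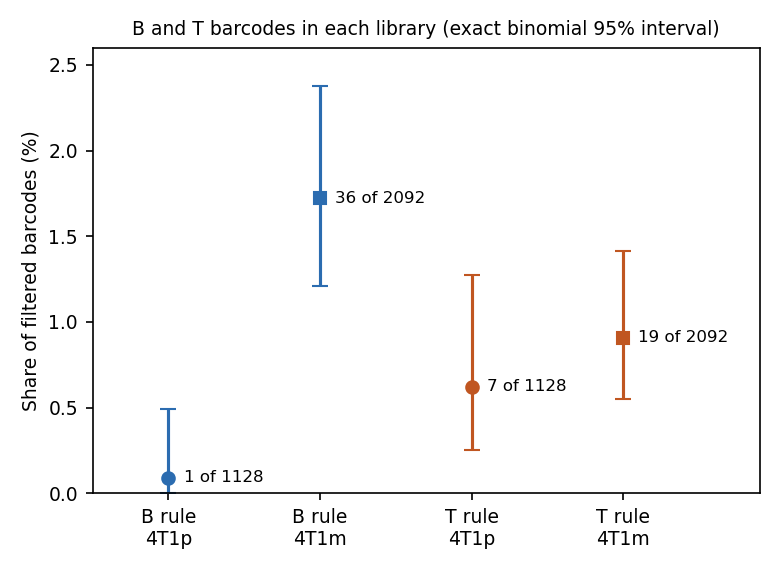
Share of filtered barcodes (%) that passed the B rule (blue) or the T rule (orange) in the libraries labelled 4T1p (circles) and 4T1m (squares), with exact binomial 95% intervals. The B share is 0.0887% and 1.72%, with intervals that do not overlap, and the T share is 0.621% and 0.908%.

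Beyond the genes of the rule, B and T barcodes were compared gene by gene over both libraries together, as the log2 ratio of CPM, the UMIs of a gene divided by all UMIs of the group and scaled to a common total. With at least 20 UMIs in the 2 groups, 2745 genes could be compared, and their median log2 ratio, B over T, was 0.11. A ratio of at least 1 in size was found for 29.5% of them, 498 genes (18.1%) higher in B and 313 genes (11.4%) higher in T. The groups were chosen by their expression, so these ratios describe how the groups differ and are not a test. A ratio against 3 UMIs is a lower bound that leaves out the counting error of the other group, so the exact limit is smaller in size. It was taken where a gene had no UMI in a group. Such a gene reached the minimum through the other group alone and had to differ, so the counts and medians of lists say where the UMIs lay and support nothing further.

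The genes of B cell identity were counted in B barcodes and rarely in T barcodes. Of 19 B identity genes in the files 16 had enough UMIs, and the 16 were higher in B, 11 of them with 0 UMIs in T, with a median log2 ratio of 4.25. Ebf1, the factor that specifies the lineage, had 305 UMIs in 34 of 37 B barcodes and 0 in T. Its log2 ratio was 6.49 at the limit set for a count of 0, with an exact lower limit of 6.18. Pax5, which maintains B identity, had 88 UMIs in 32 B barcodes and 0 in T (4.70 at the same limit, with an exact lower limit of 4.37). Bank1, Blnk and Fcmr, which encode 2 signalling adaptors and the IgM Fc receptor, had 66, 65 and 64 UMIs in 27, 24 and 24 B barcodes and 0 in T. Tnfrsf13c, the receptor for the survival factor BAFF, had 76 UMIs in 27 B barcodes and 1 UMI in T, a log2 ratio of 6.07 (3.55 to 11.39). Scd1, a fatty acid desaturase that no list held, was among the 12 genes highest in B, with 107 UMIs in 31 B barcodes and 0 in T.

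T barcodes showed the mirror image. Of 20 T identity genes in the files 16 had enough UMIs, of which 15 were higher in T, 10 of them with 0 UMIs in B, and Satb1, a chromatin organiser, had a log2 ratio of 0.20 (−0.13 to 0.53), with a median of −4.39 over the list. Trac, the constant region of the receptor alpha chain, had 75 UMIs in 20 of 26 T barcodes and 0 in B, a log2 ratio of −4.82 at the limit of 3 UMIs in B. Cd3d had 56 UMIs in 21 barcodes, Cd28, the main costimulatory receptor, 54 UMIs in 20, and Bcl11b, a factor of T lineage commitment, 44 UMIs in 20, all with 0 UMIs in B. Il7r, the receptor for the survival cytokine IL-7, had 70 UMIs in 17 T barcodes and 0 in B, and 1076 UMIs were also counted in 307 of the other barcodes. The same holds for Cd3d, with 120 UMIs in 72 of the others.

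Receptor signalling divided in the same way. Of 9 genes of B cell receptor signalling 8 were higher in B, the median log2 ratio being 2.94, and 6 of 7 genes of T cell receptor signalling were higher in T, with a median of −4.29. Syk had 80 UMIs in 29 B barcodes and 4 UMIs in 2 T barcodes, and Lyn had 36 UMIs in 20 and 2 UMIs in 1. Lck, the kinase bound to CD4 and CD8, had 56 UMIs in 20 T barcodes and 2 UMIs in 2 B barcodes. Lat, the adaptor at which the T cell receptor signal branches, had 58 UMIs in 19 T barcodes and none in B. Grb2, an adaptor both receptors use, had 79 UMIs in 23 B and 24 UMIs in 9 T barcodes, a log2 ratio of 1.54 (0.87 to 2.26).

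MHC class II genes were abundant in B barcodes. All 9 genes compared were higher in B, with a median log2 ratio of 4.68, and together the 10 listed genes made up 2.45% of all UMIs of B barcodes and 0.0766% of those of T barcodes. Cd74, the invariant chain, had 2108 UMIs in all 37 B barcodes and 70 UMIs in 8 T barcodes, a log2 ratio of 4.73 (4.39 to 5.10), and 62 of those 70 were in the deepest T barcode. H2-Aa had 872 UMIs in 37 B barcodes and 20 in 3 T barcodes. H2-Ob and H2-Oa, which encode the regulator of peptide loading that B cells are known for, had 40 UMIs in 20 and 28 UMIs in 19 B barcodes, against 36 UMIs in 32 and 24 UMIs in 19 of the 3157 other barcodes. The other barcodes also carried class II, with 1.56% of their UMIs from the 10 genes and a UMI of Cd74 in 2100 of 3157. By library their share was 2.61% in the one labelled 4T1p, above that of all B barcodes, and 1.01% in the one labelled 4T1m, where the B barcodes had 2.43%.

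Promoters of 6 of the listed B, T and class II genes are printed, each to show a match to 1 of the strings searched. Each is the 150 bases before the start of the gene in RefSeq, GRCm38.p6, on the strand of the gene. Exons in GENCODE vM21 cover 16 bases of the window of Cd3e, 4 of H2-Eb1 and 2 each of Cd72 and Cd22. A total of 6 strings were searched on both strands, and capitals mark the match: AGGAAGT, an ETS core; ATGCAAAT, the octamer; CTGATTGG, the Y box of class II promoters; an EBF palindrome, TCCC and GGGA with 2 bases between; TGTGGTT, a RUNX site; and CTTTGAA, a TCF and LEF site. No matches to different strings overlapped in the windows printed (0 overlaps). The strings and the promoters shown were chosen after matches had been seen.
Cd72 (chr4:43454627-43454776, minus strand): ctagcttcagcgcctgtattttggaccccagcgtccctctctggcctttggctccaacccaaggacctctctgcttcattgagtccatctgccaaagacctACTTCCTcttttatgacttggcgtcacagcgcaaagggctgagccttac
Vpreb3 (chr10:75948150-75948299, plus strand): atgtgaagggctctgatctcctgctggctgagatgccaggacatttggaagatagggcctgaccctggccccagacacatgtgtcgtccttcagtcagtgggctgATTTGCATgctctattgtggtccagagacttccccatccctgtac
Cd22 (chr7:30879029-30879178, minus strand): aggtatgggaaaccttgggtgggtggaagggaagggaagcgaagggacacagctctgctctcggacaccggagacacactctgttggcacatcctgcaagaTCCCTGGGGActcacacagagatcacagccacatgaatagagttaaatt
H2-Aa (chr17:34287824-34287973, minus strand): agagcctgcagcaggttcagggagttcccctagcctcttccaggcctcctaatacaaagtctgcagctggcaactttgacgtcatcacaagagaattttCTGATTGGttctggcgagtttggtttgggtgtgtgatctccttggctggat
H2-Eb1 (chr17:34305717-34305866, plus strand): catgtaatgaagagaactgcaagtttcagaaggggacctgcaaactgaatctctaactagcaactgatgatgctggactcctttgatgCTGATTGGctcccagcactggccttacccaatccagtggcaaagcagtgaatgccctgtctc
Cd3e (chr9:45009612-45009761, minus strand): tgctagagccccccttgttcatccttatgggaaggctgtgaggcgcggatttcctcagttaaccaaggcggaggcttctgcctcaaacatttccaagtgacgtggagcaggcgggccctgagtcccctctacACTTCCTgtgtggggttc

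A RefSeq promoter was matched by symbol for 17 of 23 B list genes, 15 of 24 T list genes and 7 of 10 MHC class II genes. The AGGAAGT core was found in 6 of 15 T list promoters, 2 of 17 B list promoters and 1 of 7 MHC class II promoters, against 5.90% of all 27025 genes with a promoter. In Cd72 and Cd3e, printed above, it lies on the other strand. The octamer was found in 2 of 17 B list promoters, those of Blnk and Vpreb3, and in 0 of the T list, against 1.17% of all genes. The Y box was found in 3 of 7 class II promoters, those of H2-Aa, H2-Eb1 and H2-Oa, against 3.70% of all genes. The EBF palindrome was found in 1 B list promoter, that of Cd22, against 0.533%, the RUNX string in 3 B and 1 T list promoters, against 3.08%, and the TCF and LEF string in 1 T list promoter, that of Bcl11b, against 2.82%. A match describes the letters of the window and is not evidence of binding.

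Genes of naive and memory cell states were compared as well. Of 8 naive and memory genes compared, 5 were higher in T, the median log2 ratio being −1.71. Lef1 and Tcf7, transcription factors of naive T cells, had 62 UMIs in 16 and 41 UMIs in 15 T barcodes, against 0 and 1 UMI in B. The homing genes were counted in both groups: Ccr7, the receptor that guides cells into lymph nodes, had 79 UMIs in 26 B and 102 UMIs in 17 T barcodes, a log2 ratio of −0.55 (−0.99 to −0.11), and S1pr1, which guides them out, had 32 and 33 UMIs. Klf2, a factor that drives S1pr1, had 81 UMIs in 19 B and 250 UMIs in 23 T barcodes, a log2 ratio of −1.80 (−2.18 to −1.44), although within the library labelled 4T1p, with its 1 B barcode, the ratio was 0.41. Cxcr5, the receptor for entry into follicles, had 26 UMIs in 12 B barcodes and 1 UMI in T.

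Cytotoxic genes were counted in T barcodes and not in B barcodes. Each of the 12 listed had 0 UMIs in B, and the 6 that reached the minimum did so through T alone. Nkg7, a protein of cytotoxic granules, had 64 UMIs in 11 T barcodes, and Ctsw and Klrd1 had 24 UMIs each, in 10 and 9. All 50 UMIs of Gzmb were in 1 barcode, which had no UMI of Cd3g, Cd3e or Cd3d. Some of these genes were also counted in the 3157 other barcodes, Ccl5 with 6125 UMIs in 530, Klrk1 with 281 UMIs in 171 and Cst7 with 39 UMIs in 36. Of 7 checkpoint and costimulation genes 5 were higher in T, and Btla and Tox lay between, with log2 ratios of 0.52 and −0.71. Ctla4, the inhibitory receptor that competes with CD28, had 68 UMIs in 9 T barcodes and 0 in B. Pdcd1, which encodes the target of the therapy, had 5 UMIs in 3 T barcodes and 0 in B.

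Of the 12 immediate early genes, 8 were higher in T, 2 higher in B and 2 between, with a median log2 ratio of −1.15. Ier2 had 41 UMIs in B and 145 in T, and Junb 206 and 427, with a log2 ratio of −1.23 (−1.48 to −0.99) for Junb. The 2 genes higher in B were Cd83, a surface protein of activated B and dendritic cells, with 134 UMIs in 30 B barcodes and 14 UMIs in 2 T barcodes, and Egr1, with 76 UMIs in 8 B and 17 UMIs in 8 T barcodes. Of 8 heat shock genes 3 were higher in T and 5 between, with a median of −0.60. Hspa1b, an inducible chaperone, had 3 UMIs in B and 30 in T barcodes, and Hspa8, the constitutive one, had 316 and 496. The interferon response genes gave 346 CPM in B and 778 CPM in T, against 1931 CPM in the other barcodes.

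**Figure D3:**
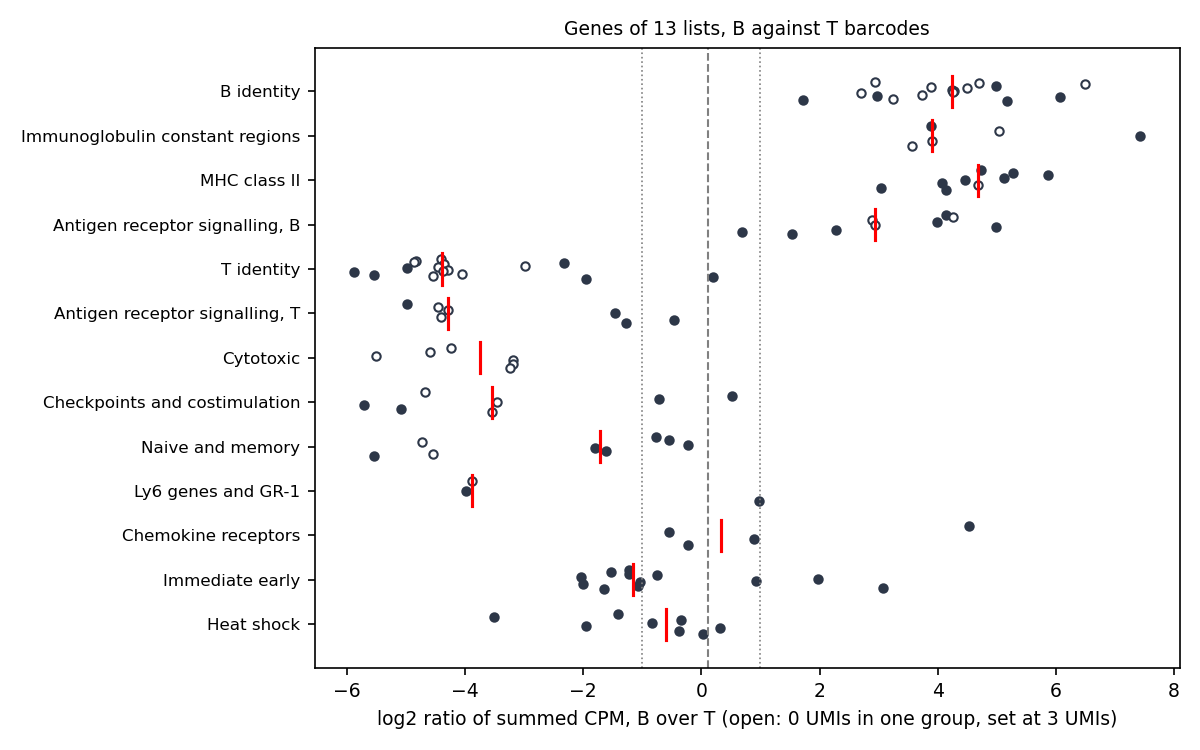
Log2 ratio of CPM, B over T (horizontal), of each gene with at least 20 UMIs in 13 gene lists (vertical); open points had 0 UMIs in 1 group and were set at 3 UMIs, red bars are list medians, the dashed line is the median of all 2745 genes (0.11) and the dotted lines mark −1 and 1. B identity, MHC class II and B receptor signalling lie to the right, and T identity, T receptor signalling and cytotoxic genes to the left.

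By the heavy chain genes the B barcodes were taken as 7 with Ighg1, 27 with Ighm or Ighd and no Ighg1, and 3 with none of these. Ighm, the constant region of IgM, had UMIs in 27 of 37 B barcodes and Ighd, that of IgD, in 24, and 23 had both, as naive mature B cells do. Ighg1, the constant region of IgG1, had 40 UMIs in 7 barcodes, 6 of them with neither Ighm nor Ighd. No UMI of Ighg2b, Ighg2c or Ighg3 was found in any B barcode, and Ighe had 3 UMIs in 1 and Igha 1 UMI in 1. In 3 barcodes, with a median of 1113 UMIs, none of Ighm, Ighd and Ighg1 was detected. Igkc, the kappa light chain, had UMIs in 35 B barcodes and a lambda gene in 30, with 28 holding both. Kappa was the more abundant in 32, lambda in 4, and the counts were equal in 1. A UMI of Igkc was found in 14 of the 3157 other barcodes, or 0.443%, at a median depth of 2452 against 3772 UMIs. These 14 were all in the library labelled 4T1m, where they made up 0.687% of the other barcodes. The 94.6% of B barcodes with Igkc lies above both shares.

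Some genes of the germinal centre, where B cells divide and mutate their receptors, were counted in the 7 barcodes with Ighg1. These were compared with the 27 barcodes that had Ighm or Ighd and no Ighg1. Rgs13, a regulator of chemokine signalling in germinal centre B cells, had 28 UMIs in 7 of 7 barcodes with Ighg1, or 444 CPM. It had 0 in the 27, which is 26.1 CPM at the limit of 3 UMIs and 32.1 CPM at the exact upper limit. Jchain, the joining chain of secreted antibody, had 50 UMIs in 6 of 7, a level of 793 CPM (589 to 1045), and 0 in the 27. Mki67, a gene of dividing cells, had 14 UMIs in 3 of 7, 10 of them in 1 barcode, and 0 in the 27. Other germinal centre genes were sparse in both sets. Bcl6, a repressor that germinal centre B cells need, had 2 UMIs in 2 of 7 and 3 UMIs in 3 of the 27, Fas had 3 UMIs in 3 barcodes of each set, S1pr2 had 5 UMIs in 2 of 7 and 0 in the 27, Gcsam had 1 UMI in 1 of 7 and 0 in the 27, and Mef2b had 0 in both. Rgs13 was also counted in 1 and Jchain in 2 of the 3 barcodes with none of the heavy chain genes. All 7 were in the library labelled 4T1m, and their median of 8981 UMIs was above the 3660 of the 27, and the part of depth in these differences was not tested.

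Other genes of mature B cells, chosen after their values were seen, lay on either side. Ighd, which helped define the 27, had 111 UMIs in 24 of the 27 and 0 in the 7. Klf2 was at 695 CPM in the 27 (551 to 865) and 15.9 CPM in the 7 (0.402 to 88.4), where it had 1 UMI. Satb1 was at 1547 and 63.4 CPM. Ccr7 was at 600 CPM (467 to 759) and 159 CPM (76.1 to 292). Cr2, a complement receptor, was higher in the 7, at 825 CPM (616 to 1081) against 183 CPM (113 to 279), with 40 of its 52 UMIs there in 1 barcode, and Cxcr5 was at 222 CPM (121 to 373) in the 7 and 104 CPM (53.9 to 182) in the 27. Sdc1, Prdm1 and Tnfrsf17, genes of secreting plasma cells, had 0 UMIs in all 37, and Mzb1 had 49 UMIs in 18. The sets were drawn on the same counts, so these differences carry no test.

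**Figure D4:**
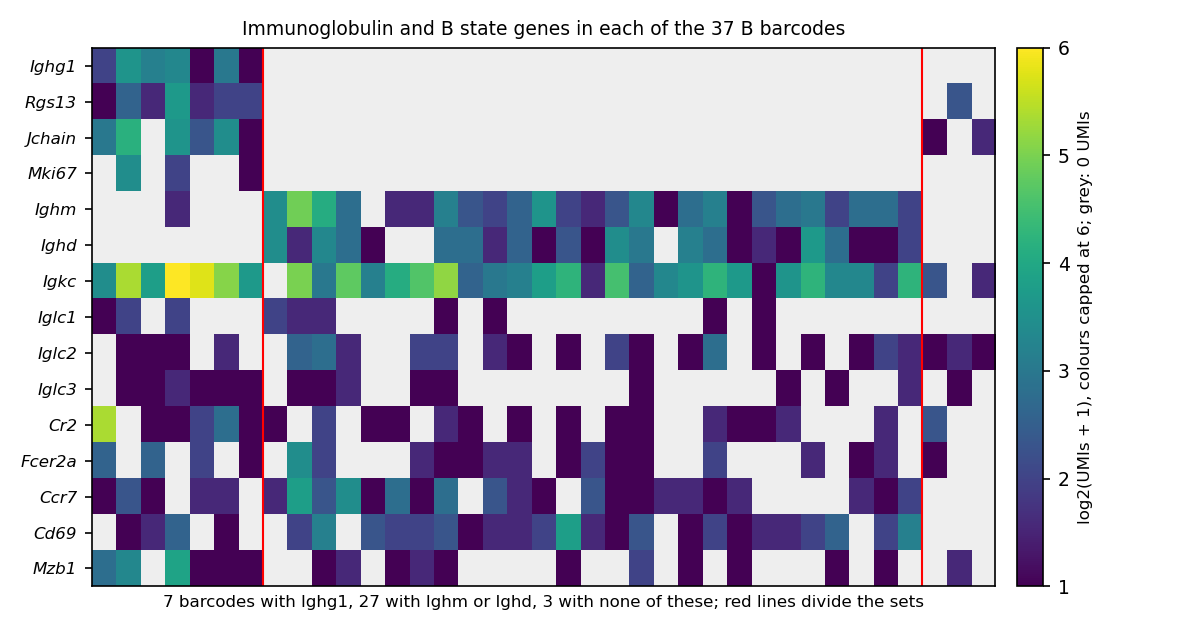
UMIs of immunoglobulin and B state genes (vertical) in each of the 37 B barcodes (horizontal), coloured by log2(UMIs + 1), capped at 6, with 0 UMIs in grey; red lines divide the 7 barcodes with Ighg1, the 27 with Ighm or Ighd and the 3 with none of these. All 7 with Ighg1 hold Rgs13 and lack Ighd, and the 27 hold no Rgs13, Jchain or Mki67.

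The only B barcode of the library labelled 4T1p held 4057 UMIs. It had 21 UMIs of Cd79a, 5 of Cd79b and 0 of Ms4a1, 10 each of Ighm and Ighd, 0 of Igkc and 3 of Iglc1, and 78 of Cd74. It also had 13 UMIs of Klf2 and 4 of Ebf1. With 1 barcode, B cells of the 2 libraries could not be compared.

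T barcodes carried mostly the alpha and beta receptor. Trac had UMIs in 20 of 26 and Trbc1 in 15, all of which also had Trbc2. A constant gene of the delta or gamma chain was found in 4, of which 2 also had Trac and 1 was the barcode with all UMIs of Gzmb, which had no UMI of Cd3g, Cd3e, Cd3d or Trac. Cd8a or Cd8b1 without Cd4 was found in 9 T barcodes, Cd4 without Cd8 in 7, both in 0 and neither in 10. Thinned to 1000 UMIs per barcode, 4, 4 and 18 of the 26 were CD8, CD4 and neither, so the number with neither rises as depth falls.

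The CD8 and CD4 barcodes differed in the genes they carried. Nkg7 had UMIs in 7 of 9 CD8, 0 of 7 CD4 and 4 of 10 barcodes with neither, and Klrd1 in 6, 0 and 3. Ctla4 had 3 UMIs in 2 CD8, 58 UMIs in 5 CD4 and 7 UMIs in 2 barcodes with neither. Foxp3, the factor of regulatory T cells, had UMIs in 4 CD4 barcodes and 1 with neither, and Ikzf2, which regulatory cells also use, in 5 CD4, 1 CD8 and 1 with neither. Of the 5 barcodes with Foxp3 all had Ctla4 and 4 had Ikzf2. Of the naive and memory genes, a UMI of Lef1 was found in 16, one of Ccr7 in 17, one of Cd44 in 12 and one of Il2rb in 10 of 26 T barcodes. Cd44 was counted in 11 of 19 T barcodes labelled 4T1m and 1 of 7 labelled 4T1p. A granzyme UMI (Gzma, Gzmb or Gzmk) was found in 3 of 26.

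**Figure D5:**
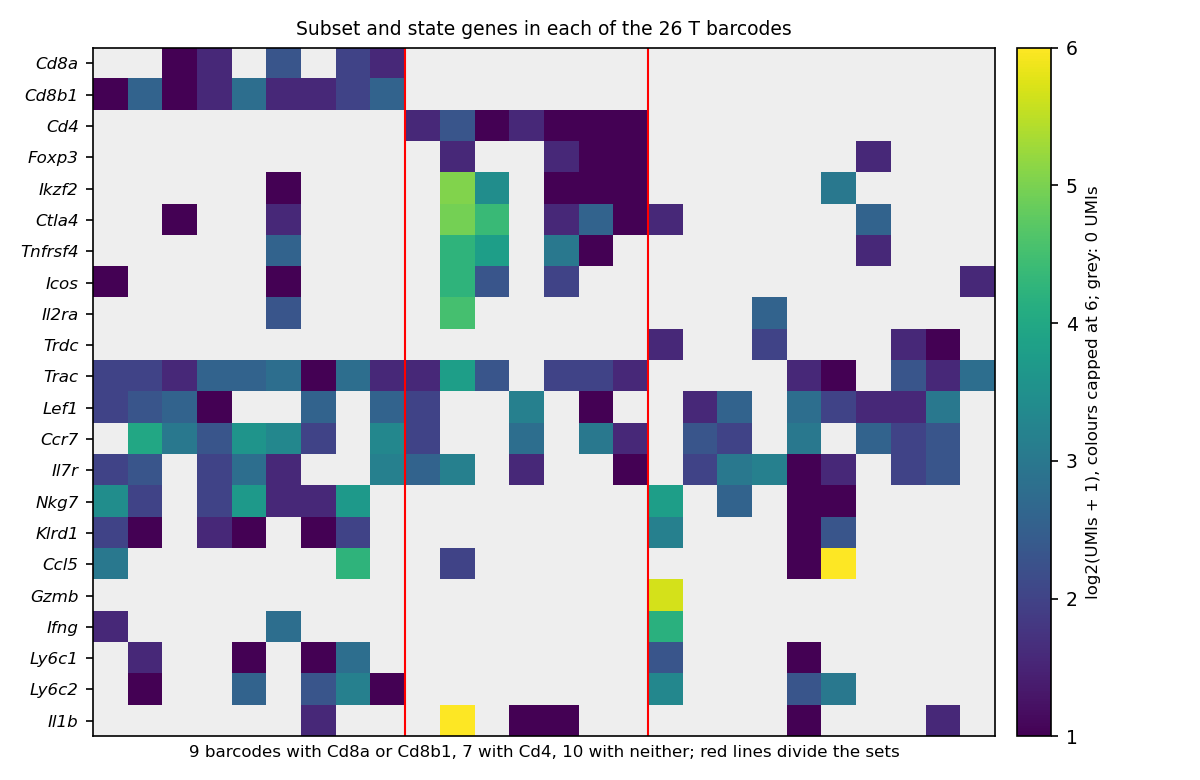
UMIs of subset and state genes (vertical) in each of the 26 T barcodes (horizontal), coloured by log2(UMIs + 1), capped at 6, with 0 UMIs in grey; red lines divide the 9 barcodes with Cd8a or Cd8b1, the 7 with Cd4 and the 10 with neither. Nkg7 and Klrd1 are absent from the 7 barcodes with Cd4, Ly6c1 and Ly6c2 likewise, and 4 of the 5 barcodes with Foxp3 are among those 7.

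The genes of the GR-1 epitope were read in the same barcodes. Ly6g (ENSMUSG00000022582, chromosome 15 from 75155240 to 75159126) had 0 UMIs in all 63, and 952 UMIs in 170 of the 3157 others. Ly6c2 (ENSMUSG00000022584, chromosome 15 from 75108158 to 75111970) had 39 UMIs in 8 of 26 T barcodes, or 30.8% (14.3 to 51.8), 0 in B and a UMI in 3.77% of the others. Ly6c1 (ENSMUSG00000079018, chromosome 15 from 75044018 to 75048830) had 15 UMIs in 6 T and 2 UMIs in 2 B barcodes. The 8 T barcodes with either gene were 2 of 7 and 6 of 19 by library, 5 of them had Cd8 and 0 had Cd4. In the other 18 T and in 35 of 37 B barcodes no transcript of the epitope was detected, which does not bear on the protein at the surface.

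Between the libraries, T barcodes were compared over the 1160 genes with at least 20 UMIs. Of these 23.4% were higher in the library labelled 4T1m by a log2 ratio of at least 1 and 5.43% in the library labelled 4T1p, with a median of 0.27 over all. At the limit of 5% mitochondrial UMIs, which leaves 2 T barcodes in each library, 25.3% of 296 genes were higher in the library labelled 4T1m and 29.4% in the library labelled 4T1p, so the larger side turned. T identity did not divide: 15 of 16 genes lay between, the median being −0.12, and Cd27 was at −2.07, with 8 UMIs in 6 barcodes labelled 4T1m and 13 UMIs in 4 labelled 4T1p. The 6 genes of T receptor signalling all lay between, with a median of −0.30. By library, Cd8 without Cd4 was found in 4 of 7 T barcodes labelled 4T1p and 5 of 19 labelled 4T1m. Cd4 without Cd8 was found in 1 of 7 and 6 of 19, and Foxp3 in 0 of 7 and 5 of 19. The part of this mix of subsets in the ratios below was not tested. Of the checkpoint and costimulation genes 5 reached the minimum, each through the library labelled 4T1m, with 28 to 65 UMIs there and 0 to 3 in the library labelled 4T1p. Of 6 cytotoxic genes 5 were higher in the library labelled 4T1p. Ccl5, a chemokine gene, lay the other way at 2.66 (1.57 to 4.01), with 114 UMIs in 4 of 19 and 7 UMIs in 1 of 7, and 92 of the 114 were in 1 barcode.

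Single barcodes carried much of these values. Ctla4 had 65 UMIs in 7 of 19 barcodes labelled 4T1m and 3 UMIs in 2 of 7 labelled 4T1p, a log2 ratio of 3.07 (1.46 to 5.39), and 30 of the 65 were in the deepest barcode, without which the ratio was 2.49, a value computed after seeing the data, and it was 2.08 without the deepest barcode of each library. Tnfrsf4, the costimulatory receptor OX40, had 46 UMIs in 6 of 19 and 0 of 7, 18 of them in the same barcode. Of 28 UMIs each in the library labelled 4T1m, Tnfrsf9 had 23, Icos 18 and Tnfrsf18 15 in that barcode. Without it their ratios were 0.27 for Tnfrsf9, which no longer reached 1, 2.27 for Icos and 1.06 for Tnfrsf18, on 5, 10 and 13 UMIs. That barcode had 22681 UMIs, Foxp3 and Cd4, and it also held 117 of the 124 UMIs of Il1b, 252 of the 269 of Cxcl2 and 52 of the 53 of Cd14, which are genes of myeloid cells. Without it the granulocytic and monocytic genes gave 0.0430% of the T UMIs in the library labelled 4T1m, against 0.0223% in the library labelled 4T1p. All 50 UMIs of Gzmb in the library labelled 4T1p were in 1 barcode, which also held Ncr1 and Klrb1c, genes of natural killer cells, and no UMI of Cd3g, Cd3e, Cd3d or Trac. With at least 2 of Cd3g, Cd3e and Ms4a4b required, Nkg7 moved from −1.10 to −0.33 between the libraries, and it was −0.58 without the deepest barcode of each library, and Ctsw, Klrd1 and Ifng had too few UMIs to be compared.

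Further genes were read between the libraries. Cd69, an early activation marker, had 149 UMIs in 16 of 19 and 19 UMIs in 5 of 7, a log2 ratio of 1.60 (0.91 to 2.38), with 73 of the 149 in 1 barcode. Tnfsf8, a ligand of the tumor necrosis factor family, had 58 UMIs in 8 of 19 and 0 of 7, with 28 of the 58 in 1 barcode. Klf2 ran the other way, with 142 UMIs in 16 of 19 and 108 UMIs in 7 of 7, a ratio of −0.97 (−1.34 to −0.60). Ms4a4b, a gene of the rule, had 51 UMIs in 14 of 19 and 61 UMIs in 7 of 7, a ratio of −1.62 that was −0.82 without the deepest barcode of each library. Ribosomal protein genes gave 23.1% of the T UMIs in the library labelled 4T1m and 34.3% in the library labelled 4T1p, and with totals that leave out receptor, ribosomal and mitochondrial genes the ratio was −1.21 for Klf2, 1.37 for Cd69 and 2.84 for Ctla4.

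Variable segments of the receptors were rarely captured in these 3′ libraries. In B barcodes 12 UMIs of heavy chain segments were found in 10 of 37, 4 of kappa segments in 4 and 1 of a lambda segment in 1. In T barcodes 16 UMIs of alpha segments were found in 5 of 26 and 5 of beta segments in 3. No segment of the other lineage was found in either group. No segment count was large enough to describe clones.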

How the data were processed

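GR-1+ cells of 2 kinds of tumor were measured, with 1 single-cell library for each kind. The deposited files hold UMI counts of each gene in each barcode, not normalized, which the authors made with Cell Ranger on the mm10 genome with Ensembl release 93 annotation; the matrix headers name software version 3.1.0. The deposited counts cover 28692 genes, of which 67 symbols repeat. From these counts, barcodes were filtered and B and T groups formed as stated above, with Python 3.11.15, numpy 2.4.6, scipy 1.17.1, pandas 2.3.3 and scanpy 1.11.5. Members, gene lists and comparisons were chosen with earlier results of these data known. UMIs were summed per group and given as CPM with exact Poisson intervals. Log2 ratios of 2 sums carry exact binomial intervals and were taken for genes with at least 20 UMIs, 0 counts being set at 3. No test was made, since each condition has 1 library.

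Named genes were those of 28 lists and, between B and T, the 12 genes highest and the 12 lowest among genes with at least 50 UMIs and a UMI in at least 25% of the higher group (6 and 6 between libraries). Ptprc was chosen after its values were seen. Some named genes are not reported here. On simulated counts the ratio recovered the right sign for 100% of 200 changed genes between B and T and 98% between libraries in T, and 5.11% and 8.65% of unchanged genes passed a log2 ratio of 1. The simulated sums were Poisson draws per group, without variation between barcodes. They do not show how a ratio holds where 1 barcode carries most of its UMIs. Gene places are from GENCODE vM21. Alternatives were stricter markers, no Trbc2, a limit of 5% mitochondrial UMIs, no limits on barcodes, only barcodes with Ptprc, removal of doublets by score or of barcodes with at least 4 myeloid genes, at least 10 UMIs, thinning to 1000 UMIs, means over barcodes, each library alone, the deepest barcode of each group left out, the deepest 4T1m T barcode alone left out (chosen after seeing the data), and totals without receptor, ribosomal and mitochondrial genes.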

Additional observations from a re-analysis of the deposited data

Results flagged for a closer look

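In the library labelled 4T1m, 5 barcodes that passed the B rule lay outside the filters, all because over 12.5% of their UMIs were mitochondrial. They were singled out because barcodes outside the filters enter no comparison and their number is above the 3 that a count of 0 allows. They held 690 to 2979 UMIs, with a median of 1292, and 20.5% to 25.4% mitochondrial UMIs. In the library labelled 4T1p 0 such B barcodes and 1 T barcode, with 4830 UMIs, were found.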

How the results depend on the processing

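Of the values that answer a comparison, 118 stayed close to those reported and 23 moved. The limit of 5% mitochondrial UMIs moved most: the B share became 0% (4T1p) and 0.319% (4T1m), the T share 0.253% (4T1p) and 0.160% (4T1m), an order that turned, the CD4 share of 4T1p T barcodes and the gamma or delta share of 4T1m 0%, genes higher in B 63 and in T 117 of 461, and genes higher in 4T1m and 4T1p among T 75 and 87 of 296; Cd69 (B over T) turned to 2.15 and Apoe to −0.30. Stricter markers gave B shares of 0% and 0.956%, a gamma or delta share of 0% in 4T1p (also without Trbc2) and a myeloid share of 0.0752% in B of 4T1m, and both marker settings turned Xcl1 between libraries to 0.79. Barcodes with Ptprc only gave T shares of 1.35% in 4T1p and 1.21% in 4T1m, an order that also turned. Thinning gave a CD8 share of 14.3% in 4T1p and a Foxp3 share of 5.26% in 4T1m. With at least 10 UMIs, 972 and 613 of 4656 genes were higher in B and T and 725 and 172 of 2522 in 4T1m and 4T1p among T. Ratios between libraries in B are not reported and were not recomputed here, since 4T1p has 1 B barcode. Within 4T1p, 24 and 86 of 284 genes were higher in B and T, and Jun (0.30), Vps37b (1.15) and Klf2 (0.41) turned. Without members holding at least 4 myeloid genes, 165 of 887 genes were higher in 4T1m among T, and Cxcl2 (B over T) turned to 0.47; without the deepest barcode of each group it turned to 0.56, and Ctla2a between libraries to 0.86, where 41 of its 45 UMIs in 4T1p lay in 1 barcode. Without the deepest 4T1m T barcode alone, a setting chosen after seeing the data, 189 and 60 of 947 genes were higher in 4T1m and 4T1p. The causes were not tested. Of the ratios of single genes followed through the settings, 789 B over T stayed, 79 moved and 7 turned, and between libraries in T 689, 29 and 3. These leave out most genes called. Among all genes called, 9 of the 313 higher in T turned within 4T1p, the most in any 1 setting. No paired analysis was possible because each condition has 1 library. Depth limits shares of barcodes with a gene, and 8 lymphocytes in 4T1p limit every comparison between libraries.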
